A study of Schmidtea mediterranea with 50 samples.

Results

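Among 35057 transcripts of the planarian *Schmidtea mediterranea*, 143 lay above the control in one knockdown and below it in the other once *chd4* or *p53* had been silenced by feeding of double-stranded RNA. These 143 were chosen by their own values. For each transcript, the mean of log2(RPKM + 0.5) in *unc22*(RNAi) control worms was subtracted from that in *chd4*(RNAi) worms at day 15 and, separately, from that in *p53*(RNAi) worms at day 18. RPKM is the number of reads per kilobase of transcript per M (mega) reads of the library. Transcripts were kept where the mean RPKM over all 50 libraries was at least 2 and both differences were at least 0.5 in size with opposite signs. Of 17616 transcripts with such a mean, 1584 had both differences of that size, 580 of them higher in both knockdowns, 861 lower in both and 143 opposite. Of the 143 transcripts, 52 were higher in *chd4*(RNAi) and lower in *p53*(RNAi), and 91 were lower in *chd4*(RNAi) and higher in *p53*(RNAi). The 52 hold histones, a cell cycle phosphatase and a germ cell RNA-binding protein. The 91 hold enzymes of histidine, tryptophan and methionine metabolism, membrane transporters and lipid enzymes.

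Intact worms of the asexual CIW4 strain were fed bacteria expressing double-stranded RNA, mixed with calf liver paste, at 3 feedings on days 0, 3 and 6. The food targeted *chd4*, *p53* or *unc22*, and the *unc22*(RNAi) worms, fed on the same schedule, are the control throughout. Whole worms were collected at days 3, 6, 9, 12 and 15 of each RNAi, and at day 18 of *p53*(RNAi) and *unc22*(RNAi) only, since the *chd4*(RNAi) worms did not live to that day. Each library was made from a replicate of 10 worms, with 3 libraries in every group except *p53*(RNAi) at day 18, which has 2 (replicates 2 and 3). The paper calls the replicates biological, but neither it nor the labels say whether they were separate cultures. The p-values therefore measure the spread between these libraries, which may in part be technical. Because RNA came from whole worms, fewer cells of a type and less RNA per cell cannot be told apart in any value below.

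*chd4* encodes an ATP-dependent chromatin remodeler that is found with histone deacetylases in other animals, and *p53* encodes a transcription factor best known as a tumor suppressor in mammals. Planarians renew all their tissues from dividing stem cells, the neoblasts, and both genes are known to be needed for the balance between stem cells and differentiated progeny. Histone mRNAs are made mostly during DNA replication in animals, whereas amino acid breakdown and solute transport are functions of differentiated cells such as those of the gut and excretory system.

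The recovered depth was 13.9 to 26.3 M reads per library, and a median member had 138 reads in a median library, with 34 of 134 members of known length under 50 reads. The *chd4* transcript (SMED30024368) was at 9.91 to 12.0 RPKM in 15 of 15 *chd4*(RNAi) libraries, each below every control library of its day (36.2 to 44.3 RPKM over all controls). The *p53* transcript (SMED30026364) was at 1.48 to 11.9 RPKM in 17 of 17 *p53*(RNAi) libraries against 31.1 to 40.8 in controls. Its residual level was highest at day 3 (11.0 to 11.9 RPKM) and lowest at day 18 (1.48 to 1.8).

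The values that chose the members are a description and carry no test. The 52 transcripts higher in *chd4*(RNAi) had a median difference of 0.77 at day 15 of *chd4*(RNAi) (0.51 to 5.09) and of -0.92 at day 18 of *p53*(RNAi) (-4.37 to -0.50). The 91 lower in *chd4*(RNAi) had medians of -0.85 (-2.002 to -0.51) and 0.79 (0.50 to 3.14). Differences of at least 1 in both knockdowns were found in 9 of the 52 and 11 of the 91. The sets also differed in level, with a median of 5.62 RPKM (2.03 to 408) for the 52 and 15.3 RPKM (2.18 to 734) for the 91, and a mean of 100 RPKM or more in 1 of the 52 and 17 of the 91. Their transcripts had median lengths of 792 bases (52 of 52 recovered) and 1023.5 bases (82 of 91), against 977 over all tested transcripts. At the edge of the rule, SMED30003331 (0.52 and -0.50), SMED30016087 (0.51 and -0.65), SMED30005296 (-0.76 and 0.50) and SMED30006900 (-1.65 and 0.50) were just inside. SMED30010647 (5.07 and -0.48), SMED30005238 (0.49 and -0.47), SMED30004785 (5-oxoprolinase, -0.64 and 0.498) and SMED30027288 (-2.36 and 0.496) were just outside.

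**Figure D1:**
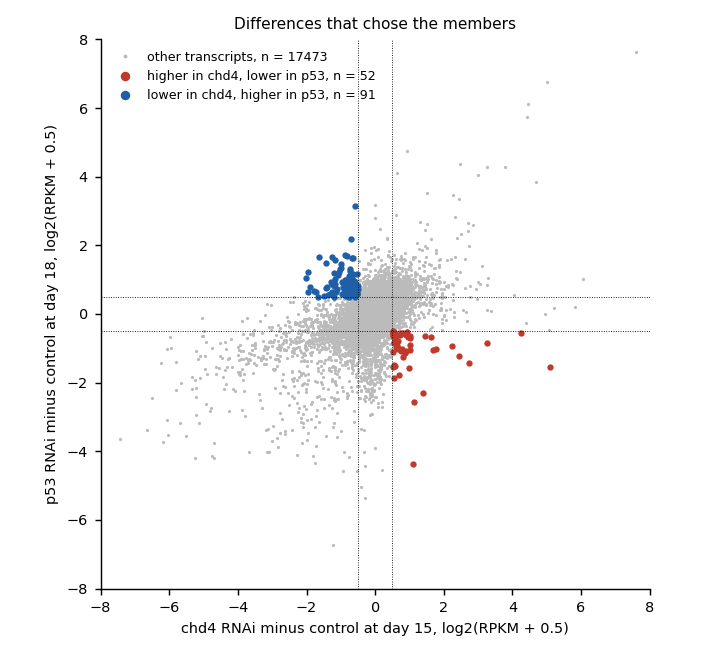
Difference from the control on the log2(RPKM + 0.5) scale at day 15 of *chd4*(RNAi) (horizontal axis) and day 18 of *p53*(RNAi) (vertical axis) for 17616 transcripts, 1 point each, with dotted lines at the 0.5 limits. The 52 members higher in *chd4*(RNAi) (red) lie at the lower right, the 91 lower in it (blue) at the upper left, and most transcripts with large differences lie in the other corners, where both knockdowns have the same sign.

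Days 3 to 12 did not enter the differences of the rule, and comparisons were tested there. Their libraries did enter the mean RPKM that the rule requires. Without the libraries of the knockdown in which they are higher, 12 of the 52 and 5 of the 91 had a mean under 2 RPKM, so that a difference in that direction was in part fixed by the choice of these transcripts. In the 52 transcripts higher in *chd4*(RNAi), the median difference from the control in *chd4*(RNAi) was 0.12, 0.22, 0.51 and 0.91 at days 3, 6, 9 and 12. In *p53*(RNAi) the same transcripts stood near the control until day 9, with medians of -0.00, 0.10 and 0.08, and below it at day 12 (-0.20) and day 15 (-0.38). In the 91 transcripts lower in *chd4*(RNAi), the median in *chd4*(RNAi) was 0.02, -0.11, -0.43 and -0.54 at days 3, 6, 9 and 12. In *p53*(RNAi) it was -0.09, 0.19, 0.61 and 0.61 at these days and again 0.61 at day 15. The higher level of the 91 in *p53*(RNAi) was thus in place by day 9. The median of the 52 in *p53*(RNAi) turned below the control after day 9, but the members differed, and at that day 9 had fallen and 15 had risen. The medians of all 25079 tested transcripts lay within 0.01 of 0 in each of these differences.

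**Figure D2:**
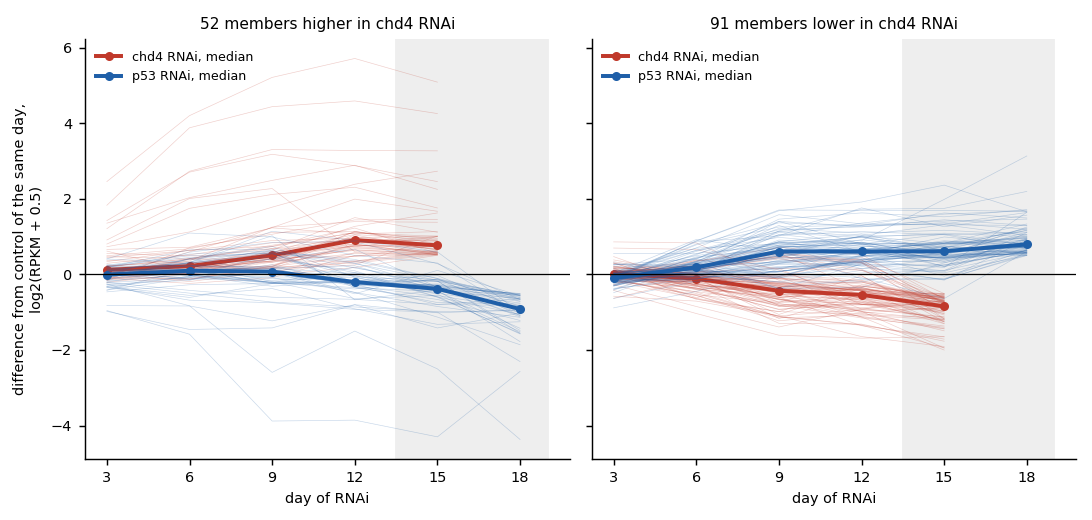
Difference from the *unc22*(RNAi) control of the same day, on the log2(RPKM + 0.5) scale, by day of RNAi for the 52 members higher in *chd4*(RNAi) (left) and the 91 lower in it (right), with 1 thin line per transcript and thick lines for medians (red *chd4*(RNAi), blue *p53*(RNAi)). The grey area marks days 15 and 18, which chose the members or share their libraries, and before it the medians part to 0.91 and -0.20 (left) and to -0.54 and 0.61 (right) at day 12.

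At day 12 the knockdowns were compared with each other, so that the difference involves neither a control library nor a library of days 15 and 18, although the spread was estimated over all groups. Of the 52 transcripts, 50 were higher in *chd4*(RNAi) than in *p53*(RNAi) (limma, adjusted p under 0.05), where 12.8% of all tested transcripts were. Of the 91, 88 were lower there (14.8% of all tested). Among the 40 and 86 transcripts with a mean of at least 2 RPKM without the knockdown in which they are higher, 39 were higher and 83 lower. The median difference was 1.01 for the 52 and -1.15 for the 91, against -0.02 over all tested transcripts.

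Against the control of day 12, the separation from both sides was less complete. In *chd4*(RNAi), 49 of the 52 rose (17.2% of all tested), and of the 91, 64 fell (16.6%) and 7 rose. In *p53*(RNAi), 75 of the 91 rose (15.0%), but of the 52 only 16 fell (13.4%) and 8 rose. Of the 40, 37 rose in *chd4*(RNAi), and of the 86, 71 rose in *p53*(RNAi). The comparisons with control share the control libraries of the day. Both changes passed the test in opposite directions, *chd4*(RNAi) up and *p53*(RNAi) down, for 14 of the 52 (0.598% of all tested). The reverse held for 52 of the 91 (0.762%). At day 9 the same was so for 7 of the 52 (0.459%) and 38 of the 91 (0.570%).

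The difference between the knockdowns was found earlier for some members than for others. At day 3, 14 of the 52 were already higher in *chd4*(RNAi) than in *p53*(RNAi) (1.61% of all tested). Of the 40, 8 were higher, whereas of the 91 only 1 was lower (0.494%) and 7 were higher. At day 6, 18 of the 52 were higher and 6 lower (5.08% and 4.89%), and 43 of the 91 were lower and 2 higher. Of the 40, 11 were higher, and of the 86, 40 were lower. At day 9, 28 of the 52 were higher and 5 lower (12.5% and 14.7%), and 73 of the 91 were lower. Of the 40, 19 were higher, and of the 86, 69 were lower. The first day with a call in the later direction was day 3 for 14 of the 52, day 6 for 4, day 9 for 10 and day 12 for 22. For the 91 it was day 3 for 1, day 6 for 42, day 9 for 30 and day 12 for 15. From day 3 to day 12 this difference rose for 40 of the 52 (8.24% of all tested) and fell for 86 of the 91 (10.9%).

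Against the control, the earliest changes of the 52 were more often on the *chd4*(RNAi) side. At day 3, 11 of the 52 rose in *chd4*(RNAi) (0.179% of all tested) and 3 fell in *p53*(RNAi) (0.694%). Of the 40, 5 rose in *chd4*(RNAi) and 2 fell in *p53*(RNAi). At day 6, 17 rose in *chd4*(RNAi) (3.11%), and in *p53*(RNAi) 8 fell (2.15%) and 6 rose (1.08%). Of the 40, 10 rose in *chd4*(RNAi), and 6 fell and 6 rose in *p53*(RNAi). At day 9, 34 rose in *chd4*(RNAi) (13.1%), and in *p53*(RNAi) 9 fell (11.5%) and 15 rose (12.3%). Of the 40, 25 rose in *chd4*(RNAi), and 8 fell and 13 rose in *p53*(RNAi). For the 91, 2 fell in *chd4*(RNAi) at day 3 (0.159%), and 19 fell at day 6 (3.84%) and 57 at day 9 (12.5%). In *p53*(RNAi), 16 of the 91 rose at day 6 (1.08%) and 62 at day 9 (12.3%). Of the 86, 15 and 59 rose there at these days.

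Names are those of the best Swiss-Prot match that the study lists for a transcript, and 48 of the 143 transcripts have one (16 of the 52 and 32 of the 91). Core histones led the 52. The DNA of eukaryotes is wound around octamers of histones H2A, H2B, H3 and H4, and 5 of the 16 described members of this set were matched to H3, H4 or H2B. Histone H3 (SMED30021776) was the member with the widest gap between the differences that chose it (5.09 and -1.55). At day 3 it was at 2.85, 3.56 and 2.74 RPKM in *unc22*(RNAi), at 19.7, 16.99 and 20.3 in *chd4*(RNAi) and at 1.85, 2.77 and 2.29 in *p53*(RNAi). The 3 *chd4*(RNAi) libraries stood far above the other 6 at that day (log2 2.46, SE 0.17, adjusted p = 4.07e-13 against the control). At day 9 *chd4*(RNAi) reached 83.2, 84.5 and 80.5 RPKM against 1.67, 1.64 and 1.91 in the control, and at day 12 the levels were 66.8, 65.1 and 70.6 against 0.443, 1.22 and 0.824. In *p53*(RNAi) it was at 0.761, 0.787 and 0.4704 RPKM at day 12, within the range of the control libraries (log2 -0.15, SE 0.17, adjusted p = 0.570). Against *p53*(RNAi) the day 12 difference was log2 5.87, SE 0.17, adjusted p = 1.69e-26. The *p53*(RNAi) libraries were all below the control at day 6 (log2 -0.61, SE 0.17, adjusted p = 0.0326), a call that is lost in 5 of 12 alternatives, and again at day 18, with 0.0952 and 0 RPKM against 0.8103, 1.58 and 1.01, and at this depth 3 reads would be 0.254 RPKM in the library at 0.

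Both H4 transcripts followed the same course at a lower level. Like H3, they reached the mean of 2 RPKM through the *chd4*(RNAi) libraries, with means of 1.45 RPKM (H3), 1.67 and 1.73 over the other 35 libraries. SMED30025482 was at 8.47, 6.598 and 7.23 RPKM in *chd4*(RNAi) at day 3 against 2.59, 3.23 and 2.95 in the control (log2 1.21, SE 0.22, adjusted p = 0.00284). At day 12 it was at 21.1, 19.5 and 16.9 RPKM in *chd4*(RNAi), 1.31, 1.35 and 1.94 in the control and 1.104, 1.28 and 1.44 in *p53*(RNAi). The *p53*(RNAi) and control libraries overlapped there, and the *chd4*(RNAi) libraries were apart from both (log2 3.47, SE 0.22, adjusted p = 4.61e-16 between the knockdowns). SMED30033466 was at 16.4, 18.9 and 19.2 RPKM in *chd4*(RNAi) at day 12, 1.71, 2.25 and 2.17 in the control and 0.905, 1.83 and 1.89 in *p53*(RNAi) (log2 3.23, SE 0.22, adjusted p = 5.79e-15). For neither H4 transcript did *p53*(RNAi) pass the test against the control at days 3 to 12.

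Both H2B transcripts were less far apart, and the level in *p53*(RNAi) crossed the control during the course. SMED30021461 was at 32.8, 30.3 and 34.1 RPKM in *chd4*(RNAi) at day 12 against 5.38, 4.84 and 7.35 in the control and 3.11, 5.34 and 5.103 in *p53*(RNAi) (log2 2.74, SE 0.16, adjusted p = 3.47e-17 between the knockdowns). At day 9 it had risen in both knockdowns, by 1.78 in *chd4*(RNAi) and by 0.65 in *p53*(RNAi) on the log2 scale (adjusted p = 0.00231 for the latter). By day 18 it was at 1.72 and 0.764 RPKM in *p53*(RNAi) against 4.12, 3.49 and 4.46. Late histone H2B (SMED30011775) was at 9.96, 11.9 and 13.03 RPKM in *chd4*(RNAi) at day 12, 0.633, 1.398 and 1.505 in the control and 2.005, 1.91 and 2.36 in *p53*(RNAi). Here *p53*(RNAi) was above the control (log2 0.67, SE 0.19, adjusted p = 0.00634), a call that is lost without control replicate 1 of that day, which has the lowest value.

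All 12 tested transcripts with a histone description were higher in *chd4*(RNAi) than in *p53*(RNAi) at day 12, with a median of 1.57 against -0.02 over all tested transcripts. Of the 12, 5 are members, chosen as higher in *chd4*(RNAi), so this count and median are in part fixed. Against the control, 10 of the 12 rose in *chd4*(RNAi), and in *p53*(RNAi) 3 rose and 1 fell. The histone outside the set with the widest gap was H2A type 2-C (SMED30011413), chosen here after its value was seen, with log2 4.27 between the knockdowns. The other histones outside the set differed by 0.24 to 0.92. The transcripts described by the study are those it called changed in these same libraries, so counts over such lists are not independent of the data. The reads could align at up to 5 places, so near-identical histone copies share reads and their separate levels are uncertain. The libraries were poly(A)-selected, so only polyadenylated histone transcripts were counted.

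**Figure D3:**
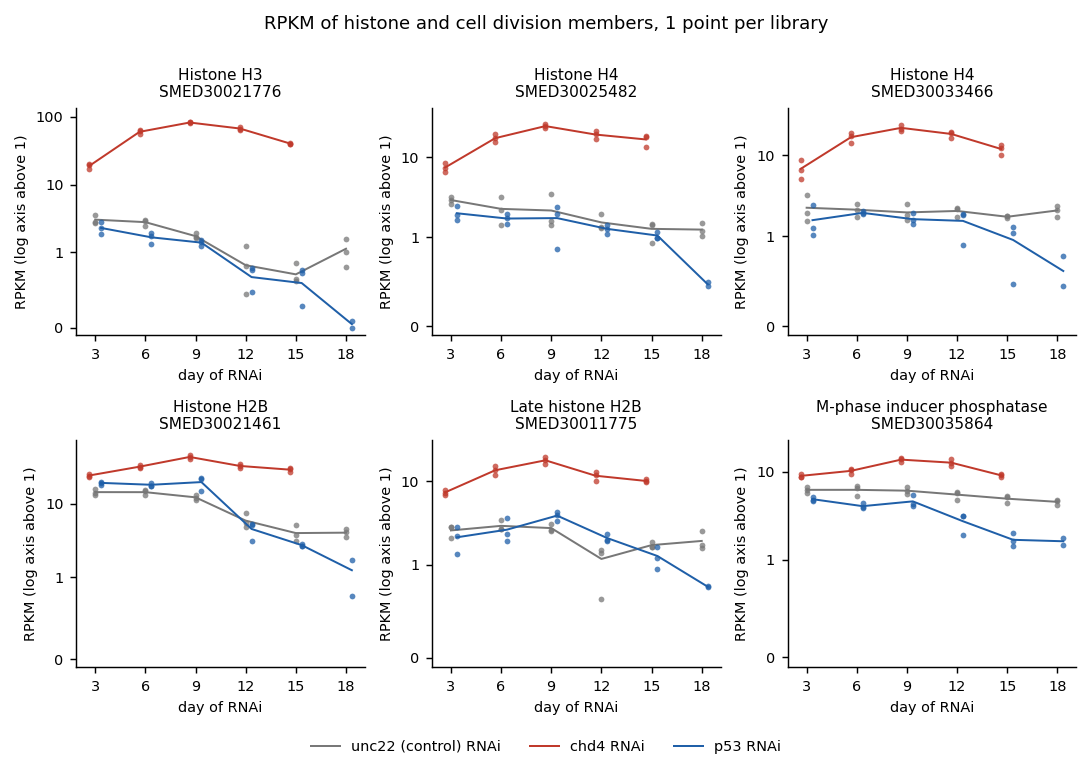
RPKM (log axis above 1, linear below) by day of RNAi for 5 histone members and the M-phase inducer phosphatase, with 1 point per library and lines through group means (grey *unc22*(RNAi), red *chd4*(RNAi), blue *p53*(RNAi)). The *chd4*(RNAi) points lie above the control from day 3, as for H3 at 16.99 to 20.3 against 2.74 to 3.56 RPKM, and the *p53*(RNAi) points of H3 and H4 lie close to the control by comparison, whereas those of the phosphatase lie below it at day 12.

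M-phase inducer phosphatase (SMED30035864), the Cdc25 type of enzyme that activates the mitotic cyclin-dependent kinase, moved away from the control in both directions. At day 12 it was at 13.8, 12.7 and 11.6 RPKM in *chd4*(RNAi), 4.78, 5.75 and 5.96 in the control and 1.899, 3.15 and 3.16 in *p53*(RNAi). The 3 groups did not overlap, with *chd4*(RNAi) above the control (log2 1.14, SE 0.12, adjusted p = 3.22e-10) and *p53*(RNAi) below it (log2 -0.91, SE 0.12, adjusted p = 1.30e-07). Between the knockdowns it differed by 0.82 at day 3 and 2.05 at day 12 (adjusted p = 2.31e-05 and 4.81e-17). Boule-like protein (SMED30020626), of a family of RNA-binding proteins needed for germ cells in flies and mammals, was at 10.6, 10.4 and 10.7 RPKM in *chd4*(RNAi) at day 12, 4.89, 5.47 and 5.205 in the control and 3.498, 4.51 and 4.18 in *p53*(RNAi). It rose in *chd4*(RNAi) from day 3 on (0.45, 0.63, 0.90 and 0.96 at days 3, 6, 9 and 12). It fell in *p53*(RNAi) at day 12 (log2 -0.32, SE 0.08, adjusted p = 0.00244), a call that is lost without *p53*(RNAi) replicate 1 of that day. MCM10 homolog (SMED30001057), a factor that starts DNA replication at loaded origins, took another course. It rose in *p53*(RNAi) at day 9 (log2 0.59, SE 0.10, adjusted p = 2.70e-05) and its *chd4*(RNAi) level at that day was lower than in *p53*(RNAi) (-0.36). At day 12 it was at 7.46, 6.33 and 6.404 RPKM in *chd4*(RNAi), 4.89, 4.24 and 5.803 in *p53*(RNAi) and 3.38, 3.85 and 4.07 in the control, and at day 18 it was at 1.65 and 1.39 in *p53*(RNAi) against 3.86, 3.91 and 3.597.

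The wider lists of DNA replication and cell division genes moved less than these members, which the rule had chosen for the size of their differences. Of 44 tested transcripts listed by words of such a description, 32 were above and 4 below their *p53*(RNAi) level in *chd4*(RNAi) at day 12, with a median of 0.41. The 4 were those described as cyclin-dependent kinase-like 3 and calcyclin-binding protein, which the list holds by a word of the name only. The same 4 are those that fell in *chd4*(RNAi) below. Of the 44, 14 rose and 4 fell in *chd4*(RNAi) against the control, and 3 rose and 26 fell in *p53*(RNAi), so most of the difference in this list was on the *p53*(RNAi) side. Of 22 transcripts described as piwi, tudor, RNA helicase or other RNA-binding and RNA-modifying proteins (boule-like, CUGBP Elav-like and gld-2), 16 were higher and 1 lower (median 0.31). In *chd4*(RNAi) 10 of the 22 rose and 4 fell, and in *p53*(RNAi) 1 rose and 16 fell.

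Markers of dividing cells differed between the knockdowns in the direction of these members, but mainly on the *p53*(RNAi) side. Of 21 transcripts with a neoblast-like in situ pattern, none of them a member and none at 0 in any library of day 12, 17 were higher in *chd4*(RNAi) than in *p53*(RNAi) at day 12. Against the control, 4 rose and 5 fell in *chd4*(RNAi), and 0 rose and 18 fell in *p53*(RNAi). The paper picked genes for in situ hybridization among those down-regulated in *p53*(RNAi) in these data, so the fall there was in part fixed. Their summed level at day 12 was 656 to 666 RPKM in control libraries, 684 to 704 in *chd4*(RNAi) and 437 to 586 in *p53*(RNAi). At the days of the rule it was 540 to 577 RPKM in *chd4*(RNAi) at day 15 against 604 to 633 in the control, and 255 to 278 in *p53*(RNAi) at day 18 against 603 to 619. The neoblast marker *smedwi-1* (SMED30007406) was at 241, 228 and 232 RPKM in *chd4*(RNAi) at day 12, 168, 179 and 164 in the control and 90.7, 121 and 158 in *p53*(RNAi), with log2 0.95 between the knockdowns (SE 0.11, adjusted p = 5.72e-09). The part of these cells in the changes of the 52 was not tested.

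Other described members of the 52 included a chaperone, a ribosomal protein and regulators of transcription and signaling. Heat shock 70 kDa protein (SMED30017448), a chaperone of unfolded proteins, was at 23.3, 23.1 and 24.97 RPKM in *chd4*(RNAi) at day 12, 11.99, 14.1 and 12.2 in the control and 7.23, 9.25 and 10.9 in *p53*(RNAi). The 3 groups did not overlap, with *chd4*(RNAi) at 0.87 and *p53*(RNAi) at -0.48 from the control on the log2 scale (adjusted p = 2.09e-09 and 2.44e-04). At day 18 it was at 2.91 and 3.003 RPKM in *p53*(RNAi) against 12.6, 12.2 and 11.4 in the control. 40S ribosomal protein SA (SMED30028665), of the small ribosomal subunit, was at 6.799, 6.29 and 6.599 RPKM in *chd4*(RNAi) at day 12 against 3.05, 3.98 and 3.67 in the control and 3.07, 3.49 and 4.64 in *p53*(RNAi). The *p53*(RNAi) and control libraries overlapped, and *chd4*(RNAi) lay above both (log2 0.75, SE 0.14, adjusted p = 4.56e-05 between the knockdowns). Dynein light chain (SMED30018297), a subunit of the motor of cilia in the green alga of the match, was the most abundant of the 52, with 499, 537 and 481 RPKM in *chd4*(RNAi) at day 12, 382, 375 and 446 in the control and 366, 341 and 365 in *p53*(RNAi). It rose in *chd4*(RNAi) (log2 0.34, SE 0.08, adjusted p = 0.00111), and *p53*(RNAi) did not pass the test (adjusted p = 0.144). A transcript described as cyclic nucleotide-binding domain-containing protein 2 (SMED30027940) was at 8.73, 7.62 and 8.53 RPKM in *chd4*(RNAi) against 4.86, 3.16 and 4.09 in the control (log2 0.97, SE 0.11, adjusted p = 1.05e-09).

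NLK (SMED30035424), a serine/threonine kinase that acts on Wnt signaling in vertebrates, is the member with an in situ pattern in the study's list, in discrete cells throughout the body and in the brain. The primers with which it was cloned, read 5′ to 3′, are shown because they mark the piece used as the probe for that pattern. The tails shared by at least 80% of the listed primers are left out.
NLK forward primer: ctgcgaatgcctacacacaaac
NLK reverse primer: aactattcgattccccgagcac
At day 12 NLK was at 62.1, 56.9 and 61.02 RPKM in *chd4*(RNAi), 39.96, 39.6 and 46.5 in *p53*(RNAi) and 30.4, 32.8 and 31.9 in the control. Both knockdowns lay above every control library (0.91 and 0.40, adjusted p = 1.39e-15 and 2.47e-06). At day 18 *p53*(RNAi) had turned below the control, with 19.6 and 18.4 RPKM against 29.3, 30.9 and 27.4.

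SOX-13 (SMED30019097), a transcription factor with an HMG box, and zinc finger protein 142 (SMED30006125), a DNA-binding protein, had courses like that of NLK. SOX-13 was at 26.8, 29.7 and 28.9 RPKM in *chd4*(RNAi) and 32.6, 31.1 and 27.2 in *p53*(RNAi) at day 9, all above the control at 19.5, 19.4 and 17.6. At day 12 the control had dropped to 12.8, 12.6 and 14.1 RPKM and *p53*(RNAi) to 14.9, 14.4 and 20.3, while *chd4*(RNAi) stayed at 28.6, 26.4 and 29.03. The rise in *p53*(RNAi) at day 12 (log2 0.30, SE 0.10, adjusted p = 0.0166) was lost in 4 of 12 alternative analyses. Zinc finger protein 142 rose in *p53*(RNAi) at day 6 (log2 0.45, SE 0.07, adjusted p = 4.84e-05), and by day 18 it was at 3.53 and 3.18 RPKM against 5.62, 6.03 and 5.28. An innexin matched to unc-9 (SMED30023483), a protein of invertebrate gap junctions, was higher in *p53*(RNAi) than in *chd4*(RNAi) at day 9 (-0.28, adjusted p = 0.0186, a call lost in 3 of 12 alternatives) and lower at day 12 (0.40 as *chd4* minus *p53*, adjusted p = 4.90e-04).

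The members of the 52 with the deepest values in *p53*(RNAi) have no description. SMED30032293 was at 25.8, 25.9 and 14.8 RPKM in *p53*(RNAi) at day 9, 114, 127 and 159 in the control and 194, 221 and 206 in *chd4*(RNAi). Its *p53*(RNAi) libraries were far below all others by that day (log2 -2.59, SE 0.27, adjusted p = 1.24e-09), and at day 18 they were at 6.101 and 2.37 RPKM against 85.7, 81.8 and 102. SMED30002834 was at 0.339, 0 and 0.292 RPKM in *p53*(RNAi) at day 9 against 10.2, 9.18 and 9.801 in the control and 23.7, 24.3 and 22.6 in *chd4*(RNAi). It was among the few that stood apart on both sides by day 9, with *chd4*(RNAi) up (log2 1.23, SE 0.30, adjusted p = 0.00170) and *p53*(RNAi) down (adjusted p = 4.01e-13), and 3 reads would be 0.33 RPKM in the library at 0. SMED30033665 was at 16.1, 15.2 and 13.2 RPKM in *chd4*(RNAi) at day 12, 6.01, 5.36 and 4.63 in the control and 2.19, 3.396 and 2.23 in *p53*(RNAi), again with no overlap (log2 2.32, SE 0.13, adjusted p = 1.45e-17 between the knockdowns). On the *chd4*(RNAi) side, SMED30011448, which also reached the mean of 2 RPKM through those libraries, ran beside histone H3, with 4.82, 3.71 and 5.23 RPKM in *chd4*(RNAi) at day 3 against 1.14, 0.947 and 0.698 in the control and 25.1, 23.6 and 23.2 against 0.767, 0.265 and 0.5704 at day 12 (log2 4.59, SE 0.21, adjusted p = 1.71e-20). Pearson's r of its log2 values with those of H3 over the 50 libraries was 0.977, a description over libraries that share the same groups.

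The 91 transcripts lower in *chd4*(RNAi) and higher in *p53*(RNAi) include enzymes of amino acid breakdown and of the methyl cycle. The methyl cycle turns methionine into S-adenosylmethionine, the methyl donor of the cell. Glycine N-methyltransferase (SMED30003448), which disposes of surplus methyl groups by passing them to glycine, was at 82.2, 91.5 and 96.00 RPKM in the control at day 12, 42.3, 53.3 and 41.3 in *chd4*(RNAi) and 193, 177 and 162 in *p53*(RNAi). The 3 groups did not overlap, with *chd4*(RNAi) at -0.98 and *p53*(RNAi) at 0.98 from the control on the log2 scale, and log2 -1.95, SE 0.10, adjusted p = 1.71e-18 between the knockdowns. At day 3 the difference between them had not passed the test (log2 0.35, SE 0.10, adjusted p = 0.0673). S-adenosylmethionine synthase (SMED30021445), which makes the methyl donor, was at 191, 197 and 200.5 RPKM in the control, 95.5, 97.9 and 95.3 in *chd4*(RNAi) and 278, 268 and 242 in *p53*(RNAi) at day 12. It fell in *chd4*(RNAi) from day 6 (-0.56, adjusted p = 1.04e-05) and rose in *p53*(RNAi) at day 9 (0.35, adjusted p = 0.00155).

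Enzymes of the histidine breakdown path were in the set. Histidine ammonia-lyase (SMED30002513), the first step, was at 118, 114 and 108 RPKM in the control at day 12, 43.4, 48.2 and 41.6 in *chd4*(RNAi) and 155, 147 and 132 in *p53*(RNAi). The lower side was the larger, with -1.35 in *chd4*(RNAi) and 0.35 in *p53*(RNAi) (adjusted p = 1.55e-16 and 0.00138). Imidazolonepropionase (SMED30018167), a later step, was at 36.5, 35.1 and 33.5 RPKM in the control, 12.7, 14.5 and 13.6 in *chd4*(RNAi) and 46.5, 43.4 and 40.3 in *p53*(RNAi) (log2 -1.64, SE 0.07, adjusted p = 4.37e-21 between the knockdowns). Urocanate hydratase (SMED30002510), the step between them and not a member, fell in both knockdowns (log2 -2.603 in *chd4*(RNAi) and -0.25 in *p53*(RNAi)).

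For the members of tryptophan breakdown shown here the larger side was *p53*(RNAi). Tryptophan 2,3-dioxygenase (SMED30007277), which opens the kynurenine path, was at 39.8, 38.3 and 36.5 RPKM in the control at day 9, 30.3, 32.5 and 26.8 in *chd4*(RNAi) and 107, 97.03 and 102 in *p53*(RNAi). At day 12 the values were 45.8, 41.5 and 46.9, 22.8, 27.3 and 27.1 and 115, 106 and 104 RPKM, with no overlap between groups at either day. It rose in *p53*(RNAi) from day 6 (0.52, 1.41 and 1.26 at days 6, 9 and 12) and fell in *chd4*(RNAi) at days 9 and 12 (-0.35 and -0.79), with log2 -2.05, SE 0.08, adjusted p = 9.43e-22 between the knockdowns. Kynurenine 3-monooxygenase (SMED30020600), which acts further along the same path, was at 19.3, 23.8 and 23.5 RPKM in the control at day 12, 16.3, 16.2 and 16.5 in *chd4*(RNAi) and 43.5, 39.8 and 36.01 in *p53*(RNAi) (log2 -1.25, SE 0.09, adjusted p = 1.07e-14 between the knockdowns). Its fall in *chd4*(RNAi) at day 9 (-0.24, adjusted p = 0.0379) was lost in 6 of 12 alternatives, whereas that at day 12 (adjusted p = 1.71e-04) was not lost in any. Non-members of the path had the larger side in *chd4*(RNAi) at day 12. Kynurenine formamidase (SMED30003475) and the kynureninases SMED30005062 and SMED30035643 were at -0.89, -0.56 and -1.54 from the control there. In *p53*(RNAi) they were at 0.06, 0.36 and -0.09, of which only 0.36 passed the test.

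**Figure D4:**
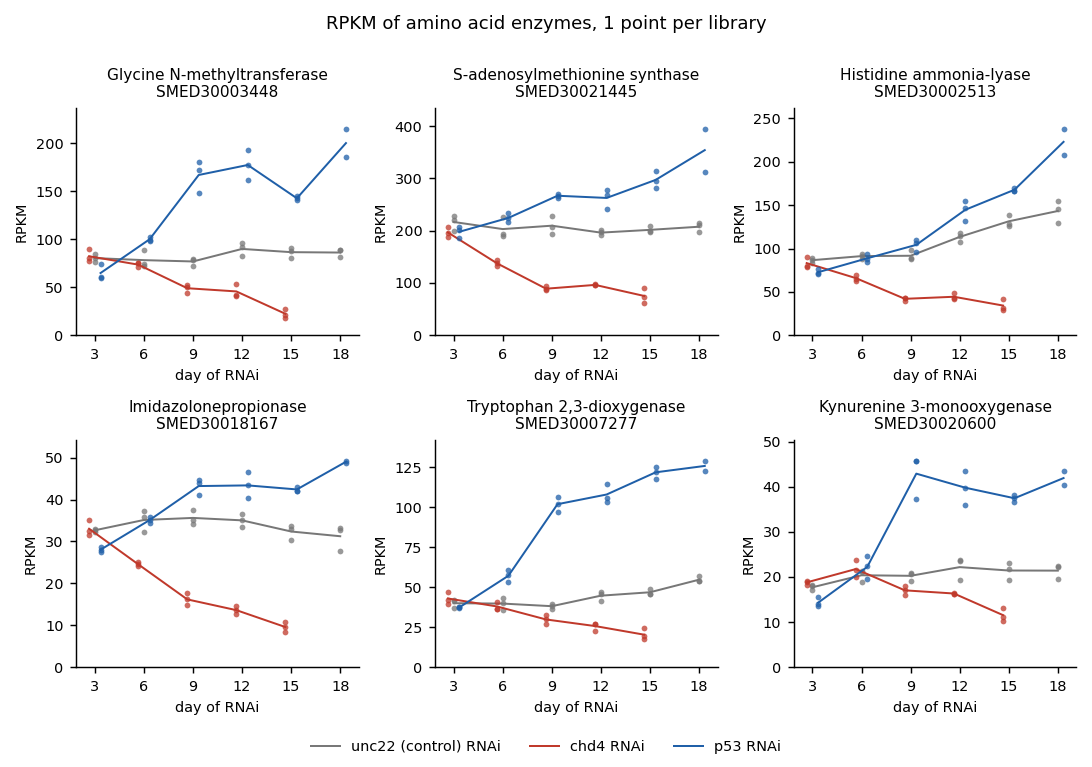
RPKM (linear axes from 0) by day of RNAi for 6 enzymes of methyl, histidine and tryptophan metabolism, with 1 point per library and lines through group means (grey *unc22*(RNAi), red *chd4*(RNAi), blue *p53*(RNAi)). The knockdowns lie closer together at day 3 than at day 9, as for tryptophan 2,3-dioxygenase at 97.0 to 107 RPKM in *p53*(RNAi) against 26.8 to 32.5 in *chd4*(RNAi).

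A glycine amidinotransferase (SMED30006337), an enzyme of creatine synthesis, and aminoacylase-1 (SMED30023874), which frees amino acids from their acetylated forms and was chosen here after its values were seen, began on the side opposite to their later one. The amidinotransferase was at 6.699, 6.34 and 7.11 RPKM in *chd4*(RNAi) at day 3, 3.41, 3.32 and 3.68 in the control and 1.71, 2.75 and 1.82 in *p53*(RNAi), with *chd4*(RNAi) the highest (log2 0.86, SE 0.16, adjusted p = 0.00430). Its lower level in *p53*(RNAi) at day 3 (-0.64, adjusted p = 0.0480) was lost in 9 of 12 alternatives. At day 12 the order had turned, with 1.51, 3.17 and 1.72 RPKM in *chd4*(RNAi), 4.26, 3.29 and 3.34 in the control and 3.72, 4.03 and 3.42 in *p53*(RNAi) (log2 -0.73, SE 0.16, adjusted p = 4.97e-04 between the knockdowns). Aminoacylase-1 was at 30.9, 35.1 and 35.9 RPKM in *p53*(RNAi) at day 3, below every control library (64.2, 59.7 and 65.4; log2 -0.88, SE 0.07, adjusted p = 1.97e-10), and at 110.4, 99.3 and 86.1 at day 12, above every one (62.4, 64.4 and 58.6; log2 0.66, SE 0.07, adjusted p = 4.32e-09). Other glycine amidinotransferases behaved unlike this member. The 4 non-member transcripts with that description, *AGAT-1* (SMED30018353) among them, fell in both knockdowns at day 12, by 1.41 to 1.93 in *chd4*(RNAi) and by 1.99 to 2.37 in *p53*(RNAi) on the log2 scale. Copies of near-identical sequence share reads here, so the separate levels of such a family are uncertain.

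Of 23 tested transcripts in the list of amino acid breakdown and methyl cycle, 8 were members. In the whole list 19 were below and 2 above their *p53*(RNAi) level in *chd4*(RNAi) at day 12, with a median of -0.90. Against the control, 19 fell and 1 rose in *chd4*(RNAi), and 12 rose and 6 fell in *p53*(RNAi). The 8 members, chosen as lower in *chd4*(RNAi) and higher in *p53*(RNAi), are in these counts, which are thus in part fixed. The 6 that fell in *p53*(RNAi) were all non-members. Ornithine aminotransferases (SMED30012193 and SMED30023510), non-members chosen here for their values, rose in *p53*(RNAi) by 1.06 and 1.13, with 0.15 and 0.22 in *chd4*(RNAi).

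Membrane transporters and a glutamate receptor formed another part of the 91. Excitatory amino acid transporter 2 (SMED30008388), which takes up glutamate, was at 8.22, 7.72 and 7.78 RPKM in the control at day 12, 3.83, 5.204 and 4.16 in *chd4*(RNAi) and 21.7, 21.2 and 18.2 in *p53*(RNAi). Both sides were apart from the control already at day 6 (-0.39 and 0.78, adjusted p = 0.0215 and 2.60e-06), but the *chd4*(RNAi) call held in only 8 of 12 alternatives. The day 12 difference between the knockdowns was log2 -2.10, SE 0.11, adjusted p = 1.54e-18. An organic cation transporter (SMED30020778) was at 75.7, 82.9 and 83.4 RPKM in the control, 59.3, 63.8 and 60.2 in *chd4*(RNAi) and 199, 177 and 159 in *p53*(RNAi), with the wider gap on the *p53*(RNAi) side (log2 -1.53, SE 0.08, adjusted p = 1.33e-18). An aquaporin (SMED30022453), a water channel, was at 83.4, 81.02 and 89.8 RPKM in the control, 56.5, 70.7 and 61.8 in *chd4*(RNAi) and 171, 160.4 and 151 in *p53*(RNAi) (log2 -1.35, SE 0.08, adjusted p = 2.82e-17). Solute carrier family 13 member 5 (SMED30008954), a citrate carrier in mammals, was at 27.5, 30.3 and 30.9 RPKM in the control, 15.3, 17.6 and 14.03 in *chd4*(RNAi) and 49.9, 41.5 and 39.8 in *p53*(RNAi). The kainate-type glutamate receptor subunit (SMED30023223), a ligand-gated ion channel, was at 23.6, 24.1 and 21.9 RPKM in the control, 11.2, 11.9 and 11.7 in *chd4*(RNAi) and 49.2, 44.9 and 44.5 in *p53*(RNAi). It was nearly evenly displaced, by -0.97 and 0.98 on the log2 scale (log2 -1.94, SE 0.06, adjusted p = 4.38e-25 between the knockdowns).

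These transporters were not typical of their list in *p53*(RNAi). Of 104 tested solute carriers and other transporters, 83 fell and 14 rose in *chd4*(RNAi) at day 12, and 70 fell and 22 rose in *p53*(RNAi), with medians of -0.95 and -0.53 against the control. The difference between the knockdowns was lower in *chd4*(RNAi) for 76 and higher for 14 (median -0.57). Of 34 transcripts listed by words as ion channels and neurotransmitter receptors, 22 fell and 10 rose in *chd4*(RNAi), and 16 fell and 7 rose in *p53*(RNAi). That list also holds channel-associated factors and a GABA transporter.

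Several enzymes of other paths were as far apart. Tankyrase (SMED30035782), which attaches chains of ADP-ribose to proteins, was at 13.4, 14.8 and 12.4 RPKM in the control at day 6, 13.4, 12.7 and 12.8 in *chd4*(RNAi) and 24.4, 25.5 and 26.5 in *p53*(RNAi), where only *p53*(RNAi) was apart (log2 0.89, SE 0.09, adjusted p = 1.16e-09). At day 12 it was at 20.9, 19.04 and 21.4 RPKM in the control, 13.05, 13.6 and 12.5 in *chd4*(RNAi) and 77.9, 67.2 and 58.3 in *p53*(RNAi), with no overlap (log2 -2.32, SE 0.09, adjusted p = 9.67e-23 between the knockdowns). Cytidine deaminase (SMED30034331), an enzyme of pyrimidine salvage, was at 40.6, 48.4 and 54.7 RPKM in the control, 19.1, 24.7 and 21.1 in *chd4*(RNAi) and 108, 100.2 and 98.5 in *p53*(RNAi) (log2 -2.22, SE 0.11, adjusted p = 5.19e-19). N-acetylneuraminate lyase (SMED30008126), which splits sialic acid, was at 12.8, 12.5 and 16.5 RPKM in the control, 10.5, 11.1 and 10.04 in *chd4*(RNAi) and 36.7, 35.6 and 31.7 in *p53*(RNAi). Its rise in *p53*(RNAi) was 1.29 (adjusted p = 1.74e-11), and its fall in *chd4*(RNAi) (-0.38, adjusted p = 0.00955) was lost without control replicate 3, the highest of its group. Saposin-C (SMED30022652), a lysosomal activator of lipid breakdown, was at 110.5, 112 and 138 RPKM in the control, 55.96, 61.5 and 65.2 in *chd4*(RNAi) and 166, 150.1 and 142 in *p53*(RNAi). It fell in *chd4*(RNAi) (log2 -0.97, SE 0.13, adjusted p = 4.77e-08), and its rise in *p53*(RNAi) (adjusted p = 0.0348) was lost in 5 of 12 alternatives. Geranylgeranyl pyrophosphate synthase (SMED30028458), which makes a precursor of lipid anchors, was at 1.89, 1.84 and 2.39 RPKM in the control, 1.13, 2.11 and 2.02 in *chd4*(RNAi) and 3.81, 4.22 and 4.22 in *p53*(RNAi). The *chd4*(RNAi) and control libraries overlapped there (adjusted p = 0.329), and *p53*(RNAi) lay above both (log2 0.86, SE 0.15, adjusted p = 1.50e-05).

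Further members with a description, chosen here after their values were seen, include lipid proteins and a transcription factor. Lipid storage droplets surface-binding protein 1 (SMED30030128), a coat protein of lipid droplets in flies, was at 112, 104 and 99.1 RPKM in the control at day 9, 38.96, 39.6 and 40.5 in *chd4*(RNAi) and 114, 103 and 114 in *p53*(RNAi). The *p53*(RNAi) and control libraries overlapped at that day, and *chd4*(RNAi) lay below both (log2 -1.39, SE 0.06, adjusted p = 4.34e-20). At day 12 *p53*(RNAi) was above the control as well (log2 0.39, SE 0.06, adjusted p = 7.58e-06). The members ACSS3 (SMED30002393) and ACSBG2 (SMED30031947), ligases that join fatty acids to coenzyme A, and the fatty acid elongase ELOVL4 (SMED30034385) differed between the knockdowns at day 12 by -1.23, -1.38 and -1.02. The list of fatty acid and lipid enzymes, made by words of the description, also holds lipid-binding and lipid droplet proteins. Of its 34 tested transcripts, 33 fell and 1 rose in *chd4*(RNAi) at day 12, and 20 fell and 5 rose in *p53*(RNAi). Protein atonal homolog 7 (SMED30029687), a transcription factor of the nervous system in vertebrates, was at 9.94, 10.9 and 13.8 RPKM in the control at day 12, 6.01, 8.49 and 5.75 in *chd4*(RNAi) and 18.9, 19.5 and 20.2 in *p53*(RNAi) (log2 -1.49, SE 0.13, adjusted p = 6.92e-12). A second innexin matched to unc-9 (SMED30032157) had the direction opposite to the innexin of the 52, with 62.8, 61.5 and 61.6 RPKM in the control, 40.3, 37.5 and 40.8 in *chd4*(RNAi) and 82.5, 78.4 and 72.9 in *p53*(RNAi) (log2 -0.97, SE 0.06, adjusted p = 6.22e-16). A peptidyl-prolyl cis-trans isomerase (SMED30002547), which helps proteins fold, was at 361, 378 and 449 RPKM in the control, 235, 236 and 214 in *chd4*(RNAi) and 523, 505 and 417 in *p53*(RNAi). It fell in *chd4*(RNAi) (log2 -0.79, SE 0.09, adjusted p = 9.06e-10), and its rise in *p53*(RNAi) (adjusted p = 0.0121) was lost in 5 of 12 alternatives.

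Among members of the 91 without a description, SMED30002575 had the widest gap between the knockdowns at day 12. It was at 2.85, 2.68 and 3.34 RPKM in the control, 0.465, 0.8396 and 0.449 in *chd4*(RNAi) and 13.2, 12.6 and 11.8 in *p53*(RNAi) (log2 -3.60, SE 0.17, adjusted p = 7.53e-20), and the groups were apart from day 6, but it is among the 5 that reached a mean of 2 RPKM through the *p53*(RNAi) libraries. SMED30012228 was at 3.77, 2.896 and 2.702 RPKM in the control, 0.928, 1.05 and 1.51 in *chd4*(RNAi) and 8.49, 9.06 and 7.596 in *p53*(RNAi) (log2 -2.43, SE 0.16, adjusted p = 7.37e-16). SMED30011034 had the highest difference at day 18 (3.14), but its libraries were spread widely, with 192 and 485 RPKM in *p53*(RNAi) against 37.7, 24.1 and 44.02 in the control. At day 12 it was at 58.8, 95.01 and 50.4 RPKM in *p53*(RNAi), where 1 library fell below the highest control (27.1, 29.1 and 54.2; log2 0.90, SE 0.30, adjusted p = 0.0223).

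Some members changed sides late. At day 9, 11 of the 91 (12.1%) were above the control in *chd4*(RNAi) at an adjusted p under 0.05, a share near the 13.1% of all tested transcripts and so no mark of the 91. They were above it by 0.41 to 0.72 on the log2 scale, before the lower level at day 15 by which they were chosen, and all 11 were above it in *p53*(RNAi) as well. Putative tyrosinase-like protein tyr-3 (SMED30029626), of a family of copper oxidases, was at 514, 469.8 and 434 RPKM in the control at day 9, 679, 736 and 646 in *chd4*(RNAi) and 873, 733 and 732 in *p53*(RNAi). Both knockdowns were above every control library (0.54 and 0.72, adjusted p = 7.80e-04 and 2.26e-05). At day 15 it was at 229.6, 188 and 315 RPKM in *chd4*(RNAi), below every control library (560.1, 513 and 544). Carboxypeptidase A2 (SMED30020602), a digestive protease in mammals chosen here after its values were seen, was at 99.5, 101 and 87.5 RPKM in *chd4*(RNAi) at day 9 against 65.1, 56.3 and 53.1 in the control (log2 0.72, SE 0.11, adjusted p = 9.59e-07). It was at 35.6, 28.3 and 45.5 at day 15 against 59.4, 53.04 and 57.2. Kallikrein-13 (SMED30013511), a serine protease, rose in *p53*(RNAi) at day 9 (log2 0.91, SE 0.16, adjusted p = 2.47e-05), and its rise in *chd4*(RNAi) (0.44, adjusted p = 0.0343) was lost in 3 of 12 alternatives. The other 8 are SMED30030027, SMED30005670, SMED30031804, SMED30004921, SMED30003470, SMED30007906, SMED30020480 and SMED30008390, which have no description. Over the 50 libraries the log2 values of tyr-3 and SMED30030027 had a Pearson's r of 0.987, the highest between any pair of the 143, as a description over libraries that share groups.

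Of the 52, 15 (28.8%) were above the control in *p53*(RNAi) at day 9 (12.3% of all tested), by 0.41 to 1.14 on the log2 scale, and all were below it at day 18 by the rule. They include histone H2B (SMED30021461), the innexin (SMED30023483), 40S ribosomal protein SA (SMED30028665), SOX-13 (SMED30019097), MCM10 (SMED30001057), zinc finger protein 142 (SMED30006125) and NLK (SMED30035424). Of these 15, 10 were also above the control in *chd4*(RNAi) at day 9, so that both knockdowns then lay on the same side. Of all tested transcripts, 1109 of 25079 were above the control in both knockdowns at that day. The undescribed SMED30033583 was at 59.9, 35.9 and 45.9 RPKM in *p53*(RNAi) at day 9, 49.1, 55.7 and 60.9 in *chd4*(RNAi) and 21.8, 24.3 and 22.9 in the control (log2 0.99, SE 0.19, adjusted p = 7.93e-05). At day 18 it was at 5.78 and 4.401 in *p53*(RNAi), below every control library (10.9, 9.96 and 11.9).

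**Figure D5:**
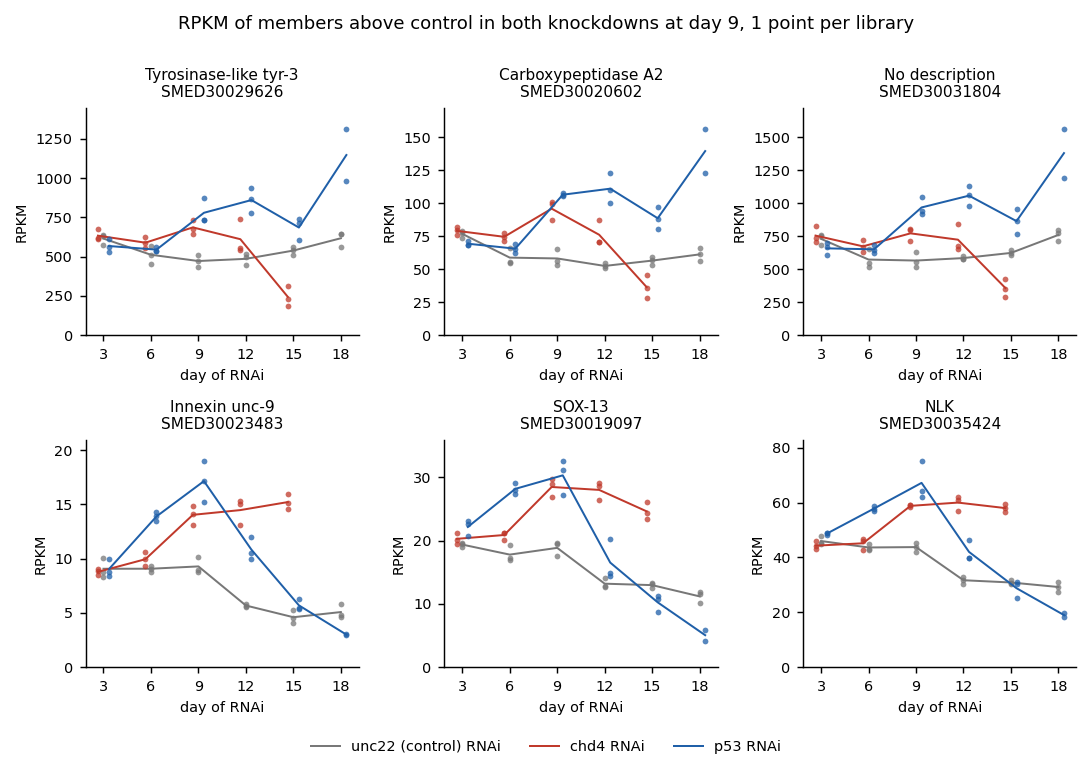
RPKM (linear axes from 0) by day of RNAi for 3 members of the 91 (top) and 3 of the 52 (bottom) that were above the control in both knockdowns at day 9, with 1 point per library and lines through group means (grey *unc22*(RNAi), red *chd4*(RNAi), blue *p53*(RNAi)). In the top row *chd4*(RNAi) drops below the control at day 15, as for tyr-3 at 188 to 315 RPKM against 513 to 560.1, and in the bottom row *p53*(RNAi) drops below it by day 18, as for NLK at 18.4 and 19.6 against 27.4 to 30.9.

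Some of these members moved in the control worms too, which were fed until day 6 and then fasted. From day 3 to day 12 of *unc22*(RNAi), 16 of the 52 fell (7.09% of all tested) and 4 rose (5.66%), and 17 of the 91 rose and 8 fell. Histone H3 (SMED30021776) fell by 1.45 on the log2 scale in control worms, H2B (SMED30021461) by 1.23 and NLK by 0.53 (adjusted p = 6.26e-08, 4.83e-07 and 6.26e-08). In *chd4*(RNAi), histone H3 was higher at day 12 than at day 3 in every library. Among the 91, saposin-C (SMED30022652) rose by 1.30 in control worms (adjusted p = 1.38e-09) and histidine ammonia-lyase (SMED30002513) by 0.39 (adjusted p = 0.00123).

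The gut markers lay below the control in both knockdowns. For in situ hybridization the paper picked genes down-regulated in both knockdowns in these data, and some down-regulated only in *p53*(RNAi) (day 18). The falls of gut, *AGAT-1* and epidermal markers below, and that none is a member, were thus in part fixed by that choice. Of 40 transcripts with a gut in situ pattern, none a member and none at 0 in any library of day 12, 39 fell in *chd4*(RNAi) and 40 in *p53*(RNAi) at day 12 (medians -1.87 and -0.89), and in *chd4*(RNAi) 29 were below and 6 above their *p53*(RNAi) level. Their summed level was 6190 to 6620.0 RPKM in control libraries at day 12, 1422 to 1943 in *chd4*(RNAi) and 2982 to 3553 in *p53*(RNAi). At the days of the rule it was 971 to 998 RPKM in *chd4*(RNAi) at day 15 against 6072 to 7334 in the control, and 2706 to 3412 in *p53*(RNAi) at day 18 against 5787 to 6922. Of 57 transcripts with the *AGAT-1* mesenchymal pattern, 55 fell in *chd4*(RNAi) and 56 in *p53*(RNAi) at day 12. Of 9 epidermal ones, 6 and 8 fell. The part of these cell types in the changes of the 91 was not tested.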

How the data were processed

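Whole-worm RNA of *chd4*(RNAi), *p53*(RNAi) and *unc22*(RNAi) worms was measured in 50 libraries. The authors made poly(A)-selected stranded libraries, sequenced single reads of 50 bases, demultiplexed reads with CASAVA 1.8.2, aligned with Bowtie to assembled transcripts, allowing up to 5 places per read, and ran edgeR on counts. RPKM per transcript were deposited, and how the authors scaled them is not given in the sources used here. Per the series record, an outlier was removed, which is not named. Depth was read from the steps of low RPKM values, which fell on steps for 26685 of 35057 transcripts (76.1%), and gave 13.9 to 26.3 M reads per library (median 19.1 M). The steps were used for depth and length only, and reads were not counted anew.

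Differences on the log2(RPKM + 0.5) scale were tested with limma 3.58.1 in R 4.3.3 (trend, 17 groups of RNAi and day, two-sided, Benjamini-Hochberg adjustment over all tested transcripts, threshold 0.05, no minimum fold). At least 1 RPKM in at least 2 libraries was required, which kept 25079 transcripts and left out 9978, and all 143 members passed. A fold on this scale understates the change of low transcripts. The spread is pooled over groups, and an exact permutation of 3 against 3 libraries could not go below 0.1. On simulated data for *chd4* minus *p53* at day 12 (25079 transcripts, 50 changed per size), 88%, 46%, 56% and 94% of log2 changes of -1, -0.5, 0.5 and 1 were called, with 9 of 24879 unchanged ones. The members, lists and tests were chosen with earlier results of these data known. Days 15 and 18 of the rule were not tested.

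Named are, per direction, the 12 members with the largest difference, the 20 described members with the largest difference, members with an in situ pattern and those at the thresholds. Others were chosen after their values were seen. Gene lists follow words in the Swiss-Prot description, and marker lists the study's in situ patterns. Alternatives were pseudocounts of 0.1 and 2, no filter, median-ratio scaling (factors 0.991 to 1.029), the groups of the days compared alone, a replicate block, and leaving out each library. Counts without the 17 members that reach a mean of 2 RPKM through the knockdown in which they are higher were added after seeing the data. Tables and plots used pandas 2.3.3, numpy 2.4.6 and matplotlib 3.10.9 under Python 3.11.15.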

Additional observations from a re-analysis of the deposited data

Results flagged for a closer look

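The difference between the knockdowns changed between the earliest and a late day for most members. The *chd4*(RNAi) minus *p53*(RNAi) difference rose from day 3 to day 12 for 40 of the 52 transcripts higher in *chd4*(RNAi) (8.24% of all tested) and fell for 86 of the 91 lower in it (10.9%), by an interaction of RNAi and day in limma at an adjusted p under 0.05. Without 1 library the counts ran from 37 to 41 and from 81 to 87. For histone H3 (SMED30021776) the difference was 2.81 at day 3 and 5.87 at day 12, and for tryptophan 2,3-dioxygenase (SMED30007277) 0.19 and -2.05.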

How the results depend on the processing

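Of 202 alternative counts of called members, 194 were within 1.5 times the reported count, and the difference between the knockdowns at day 12 kept its direction and its call for the 51 named members in 357 of 357 alternatives. These 51 were picked mainly for large differences in the rule, so their stability does not stand for that of the other members. Day 3 was the least stable. The 11 transcripts that rose in *chd4*(RNAi) at day 3 became 6 with the groups of that day alone, and 7 to 10 without 1 library (7 without *chd4*(RNAi) replicate 1 or 3 or *unc22*(RNAi) replicate 2 or 3). The 2 of the 91 that fell there became 1 with a pseudocount of 0.1, with no filter and with the groups alone, and 1 to 2 without 1 library. The 3 of the 52 that fell in *p53*(RNAi) at day 3 became 1 to 3 (1 without *p53*(RNAi) replicate 3). At day 6 the 19 of the 91 that fell in *chd4*(RNAi) became 11 to 18 (11 without *unc22*(RNAi) replicate 2). Membership depends on the rule for low values. The 52 became 28 with a pseudocount of 2, 109 with no minimum mean RPKM and 31 with a mean of at least 5, and the 91 became 140 with no minimum. Without 1 library of the rule, 49 to 60 and 88 to 100 transcripts were found, and 33 of the 52 and 65 of the 91 were in all 11 such versions.

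Same replicate numbers do not pair libraries here (47 pairs, correlation of deviations -0.04 to 0.15, median 0.03, over 0.1 in 4). A replicate block left 50 of the 52 and 88 of the 91 called between the knockdowns at day 12, and changed no count of called members by over 1.5 times. Near 50 reads and below, a single read moves a value noticeably, and *p53*(RNAi) at day 18, which chose the members, rests on 2 libraries.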
